A study of Mus musculus with 10 samples.

Results

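Tumours treated with Lipo-MK1775 were compared with negative control tumours. MK1775 inhibits WEE1, the kinase that places an inhibitory phosphate on CDK1 and so delays entry into mitosis. The tumours grew under the skin of mice from 4T1, a mouse mammary carcinoma line, and were collected on day 14. The series concerns WEE1 and the sensitivity of tumours to ferroptosis, a form of cell death driven by iron and oxidised membrane lipids. The comparison rests on 4 of the 10 libraries of the series, 2 Lipo-MK1775 and 2 negative control, the control being named PBS in the design text. The other 6 libraries, 2 each of Lipo-MK1775+NLG, Free-MK1775+NLG919 and Free-MK1775, entered the same fit and share in its estimate of the spread; NLG919 acts on IDO1, an enzyme of tryptophan breakdown. Beyond its name the Lipo form is not described in the sources used here, and neither are the doses, the mouse strain, sex and age, or whether the 2 libraries of a group came from separate mice. All 5 groups share the 4T1 tumour, the site and the day, and p-values measure only the spread between these samples, which may be technical. The values are FPKM (fragments per kilobase of transcript, scaled to the mapped fragments of the library), summed per gene, so the depth in reads behind a value is unknown.

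The 46 transcripts of the mitochondrial genome made up 64.1% and 56% of all FPKM in the Lipo-MK1775 libraries, against 4.79% and 3.70% in the negative controls. In the other 6 libraries the share was 47.3% in Free-MK1775+NLG919 replicate 2 and between 2.88% and 4.82% in 5. Genes of chromosome MT were therefore removed, and the rest of each library was rescaled to a sum of 1000000, which is called nuclear-scaled FPKM below. After that step the median gene still lay 0.93 and 0.87 log2 units under the control mean in the Lipo-MK1775 libraries and 0.91 under it in Free-MK1775+NLG919 replicate 2, while the other treated libraries differed from it by -0.13 to 0.01. Each gene was for that reason tested against the median gene: the relative difference is the log2 difference of Lipo-MK1775 from negative control, on log2(nuclear-scaled FPKM + 1), minus the median of that difference over all 13746 genes tested, which was -0.90. A relative difference of 0 thus means a gene that fell as far as the median gene, and a positive one a gene that fell less than the median gene or rose.

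WEE1 acts with PKMYT1 on CDK1, and cyclin B, CDC25 phosphatases and PLK1 act on the other side of that switch. Ferroptosis is held off by glutathione peroxidase 4 (GPX4), which reduces lipid peroxides with glutathione made from the cystine that SLC7A11 imports, and by ferritin, which stores iron. In tumours such as 4T1, which recruit many myeloid cells, RNA of macrophages, neutrophils and lymphocytes is mixed with that of carcinoma cells, and fewer cells of a type cannot be told apart from less RNA per cell.

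In limma's moderated test with Benjamini-Hochberg adjustment over all 13746 genes, 1072 genes (7.8%) were called at an adjusted p under 0.05 in Lipo-MK1775 against negative control. Of these, 956 genes (6.95%) stood above the median gene and 116 (0.844%) below it. Genes above included those of ribosomal proteins, of the nuclear-encoded respiratory chain, of macrophages, B cells and dendritic cells, and of the interferon response. Genes below included the paraspeckle RNA Neat1, the largest RNA polymerase II subunit Polr2a and the sodium pump subunit Atp1b1. On the nuclear-scaled values both Lipo-MK1775 libraries lay under both controls for 77.4% of the genes tested and above both for 7.12%, 84.5% in all, so groups that do not overlap say little by themselves for a gene that is lower. Of the 956, 907 also had a higher mean of log2(nuclear-scaled FPKM + 1) in Lipo-MK1775 than in negative control and 49 a lower one. Predicted genes and pseudogenes made up 269 of those above and 16 of those below, and 182 called genes share their locus with another symbol, between which the assembly's split of reads is uncertain.

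The count depended on single libraries. It was 2 without Lipo-MK1775 replicate 1, 101 without Lipo-MK1775 replicate 2, 3 without negative control replicate 1 and 272 without negative control replicate 2. Leaving out a library of another group gave 4299 and 4300 (Free-MK1775+NLG919 replicates 1 and 2), 693 and 707 (Free-MK1775), and 544 and 541 (Lipo-MK1775+NLG). The libraries of Free-MK1775+NLG919 differ from each other in mitochondrial share, and without either of them that group has 1 library and adds nothing to the estimate of the spread. Without replicate 2 of that group, 2488 genes (18.1%) were called above and 1812 (13.2%) below. Counts of a gene group in that fit, given beside its main count, are to be read against these 2 shares. Median-of-ratios scaling called 1463 above and 1033 below, and quantile scaling 1233 and 892. Tested against 0 rather than the median gene, 334 were called above and 6225 below. Against genes of like transcript length, 165 (1.2%) were called above and 53 (0.386%) below. With like length and without Free-MK1775+NLG919 replicate 2, 1500 (10.9%) were called above and 1019 (7.41%) below.

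Short transcripts stood above the median gene and long ones below it. The median transcript length was 904 bases for genes called above, 4480 bases for genes called below and 2721 bases for all genes tested. With the genes cut into 10 bins of equal size by length, in the bin of the shortest transcripts, 48 to 846 bases, the median relative difference was 0.94 and 31.3% were called above. In the bin of the longest, from 6008 bases, it was -0.59, with 0.291% called above and 2.98% below. Across the 13746 genes, which are not independent replicates and share the same libraries, Spearman's rho of relative difference and length was -0.52 as a description. Free-MK1775+NLG919 replicate 2 gave -0.51 on its own. The remaining libraries of Free-MK1775+NLG919, Free-MK1775 and Lipo-MK1775+NLG lay between -0.35 and -0.03. The -0.35 was that of Free-MK1775 replicate 1, whose mitochondrial share was 4.82%. The negative controls gave 0.25 and -0.25, which mirror each other because each was set against the mean of both, so the controls also differed by length. Length thus moved with the comparison, as did the mitochondrial share, and their part in each result below was not tested beyond the comparison with genes of like length.

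**Figure D1:**
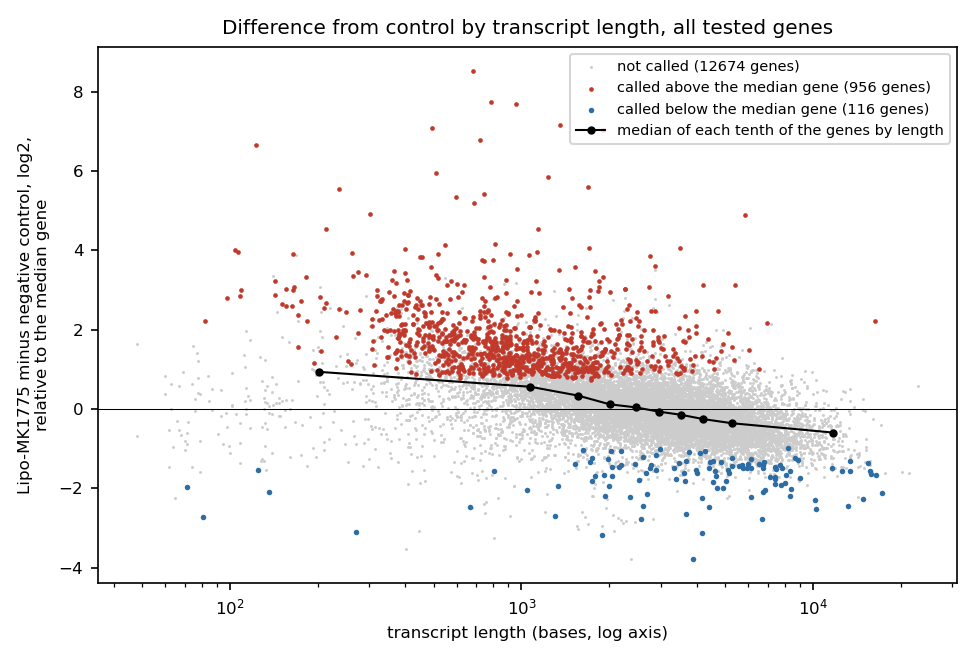
Relative difference of Lipo-MK1775 from negative control (log2, vertical axis) against transcript length in bases (horizontal log axis); each point is a gene, coloured by call, and the black line joins the medians of 10 bins of genes by length. The line starts at 0.94 for the shortest bin and ends at -0.59 for the longest.

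Some of the predicted genes called above carry mitochondrial sequence on nuclear chromosomes. Among the 13454 tested genes found in the GENCODE vM21 transcripts, 13 hold an exact match of at least 39 bases to a mitochondrial transcript, and 12 of the 13 were called above. These genes were chosen after their values were seen. The cut of 39 bases equals the shortest match of a called gene, Gm11408. Cep295 and Sugp2, with shorter matches of 34 and 20 bases, fall under the cut and were not called. Gm11407, Gm4076 and Gm11410 reached 2 nuclear-scaled FPKM only in Lipo-MK1775 and Free-MK1775+NLG919 replicate 2, and so passed the filter through those libraries. Copies that stayed low in every library were not tested, so the count of 12 is in part set by the filter. They took 4.79% and 3.84% of nuclear FPKM in the Lipo-MK1775 libraries, 1.17% in Free-MK1775+NLG919 replicate 2 and 0.05% and 0.0409% in the negative controls. Gm10925, a copy of mt-Atp6 that the files place at chr1:24653055-24653814 (GRCm39), had 21590 and 20010 nuclear-scaled FPKM in Lipo-MK1775 tumours, against 219 and 161 in negative control tumours. Reads within such matches cannot be told apart from those of the mitochondrial genes, as 60 bases of each of 2 pairs show. They are printed 5′ to 3′ from the GENCODE vM21 transcripts, in lower case because no base differs.
Gm10925: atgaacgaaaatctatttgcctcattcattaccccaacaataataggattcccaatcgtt
mt-Atp6: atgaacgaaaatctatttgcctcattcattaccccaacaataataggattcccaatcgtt
Gm29216: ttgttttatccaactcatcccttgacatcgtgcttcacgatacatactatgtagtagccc
mt-Co1: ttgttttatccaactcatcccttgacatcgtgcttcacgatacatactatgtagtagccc

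Of the 10 largest relative differences named above the median gene, 4 were noncoding RNAs, with Mir6236 first and Snord3a, Rmrp and Rn18s among the rest. Mir6236, a microRNA gene on chromosome 9, had 403 and 305 nuclear-scaled FPKM in Lipo-MK1775 tumours, against 7.35 and 4.12 in negative control tumours, a relative difference of 6.65 ± 1.05 (SE, adjusted p = 0.00678). Its mature sequence in RefSeq, on the GRCm38.p6 build, is shown because this gene had the largest relative difference among the genes named by rule, with the seed (bases 2 to 8) in capitals.
mmu-miR-6236: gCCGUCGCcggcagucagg
The value counts reads over the annotated gene, 123 bases long, and not the mature form. Rn18s, the 18S ribosomal RNA, had 17970 and 13540 nuclear-scaled FPKM in Lipo-MK1775 tumours, against 3845 and 2487 in negative control tumours (3.24 ± 0.46, adjusted p = 0.00533). Lars2, the mitochondrial leucyl-tRNA synthetase, had 939.7 and 824 nuclear-scaled FPKM in Lipo-MK1775 tumours, against 124 and 78.2 in negative control tumours (4.05 ± 0.42, adjusted p = 0.00393). Free-MK1775+NLG919 replicate 2 lay between the groups for all 3, at 129, 10370 and 292. In that order and relative to the median gene, they were low in Free-MK1775 replicate 2, at -2.70, -0.90 and -0.73. They were also low in Lipo-MK1775+NLG replicate 1 (-1.59, -0.54 and -0.62) and higher in Free-MK1775+NLG919 replicate 1 (1.46, 0.73 and 0.75). The 3 genes thus moved together, and whether reads of 1 of them were placed on another was not tested. Snord3a, a U3 small nucleolar RNA of ribosomal RNA processing with near-identical copies that can split reads, had 13.5 and 21.6 nuclear-scaled FPKM in Lipo-MK1775 tumours, against 0 and 1.14 in negative control tumours (4.53 ± 0.63). Rmrp, the RNA of ribonuclease MRP, had 46.4 and 28.3 nuclear-scaled FPKM in Lipo-MK1775 tumours, against 7.46 and 3.81 in negative control tumours (3.45 ± 0.801). Among small nucleolar and Cajal body RNAs, 5 of 17 tested members were called above and none below (without Free-MK1775+NLG919 replicate 2, 5 above and 1 below). Their median of 0.97 was -0.02 against genes of like length, with 2 above and 2 below. The list has 43 members, and those under the filter were not tested. Scarna2, which guides modification of spliceosomal RNA, had 8.35 and 6.41 nuclear-scaled FPKM in Lipo-MK1775 tumours, against 1 and 0.922 in negative control tumours (2.99 ± 0.38).

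The machinery of protein synthesis stood above the median gene. Of 79 cytosolic ribosomal protein genes, 74 were called above and none below (without Free-MK1775+NLG919 replicate 2, 79 above and 0 below), with a list median of 1.57 against 0.00 for all genes tested. Rps29 had 4937 and 5694 nuclear-scaled FPKM in Lipo-MK1775 tumours, against 2301 and 2969 in negative control tumours (1.92 ± 0.22, adjusted p = 0.00462). Rps9 had 4057 and 4430 nuclear-scaled FPKM in Lipo-MK1775 tumours, against 2062 and 2548 in negative control tumours (1.79 ± 0.197), and Rpl35a had 1449 and 1747 nuclear-scaled FPKM in Lipo-MK1775 tumours, against 545 and 698 in negative control tumours (2.27 ± 0.21). Both Lipo-MK1775 libraries were higher than both controls for all 3 genes. The list median was 1.59 and 1.58 in the Lipo-MK1775 libraries and -0.08 and 0.08 in the controls, and it was 1.78 in Free-MK1775+NLG919 replicate 2. Ribosomal protein transcripts are short, and 33 of the 79 share a locus with another symbol. Against genes of like length the list median was 0.84, with 11 above and 0 below. It was 0.66 on the nuclear scale itself, without subtracting the median gene, and 0.28 under quantile scaling. Among translation initiation and elongation factors, 8 of 30 were called above and none below (without Free-MK1775+NLG919 replicate 2, 14 above and 2 below); their median of 0.48 was -0.42 on the nuclear scale itself, -0.16 under quantile scaling and 0.31 against genes of like length, with 1 above and 0 below there.

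Nuclear genes for mitochondrial proteins followed the same direction. Of 75 tested subunits and assembly genes of the respiratory chain, 37 were called above and none below (without Free-MK1775+NLG919 replicate 2, 58 above and 1 below), with a median of 0.82. Ndufb7, a complex I subunit, had 362 and 348 nuclear-scaled FPKM in Lipo-MK1775 tumours, against 134 and 137 in negative control tumours (2.29 ± 0.23, adjusted p = 0.00393). Atp5e had 955 and 1149 nuclear-scaled FPKM in Lipo-MK1775 tumours, against 349 and 565 in negative control tumours (2.14 ± 0.25) and Atp5h 763 and 782 nuclear-scaled FPKM in Lipo-MK1775 tumours, against 391 and 435 in negative control tumours (1.81 ± 0.24); both encode ATP synthase subunits. Cox20, which helps to assemble cytochrome c oxidase, had 90.5 and 88.5 nuclear-scaled FPKM in Lipo-MK1775 tumours, against 10.02 and 10.6 in negative control tumours, and Free-MK1775+NLG919 replicate 2 stood higher still, at 169 (3.91 ± 0.68, adjusted p = 0.00969). Of 78 mitochondrial ribosomal protein genes, 22 were called above and none below (without Free-MK1775+NLG919 replicate 2, 48 above and 0 below), among them Mrpl24 at 131 and 103 in Lipo-MK1775 tumours against 65.1 and 81.2 in negative control tumours (1.58 ± 0.23). Against genes of like length, the respiratory chain median was 0.06 with 1 above and 0 below, and that of the mitochondrial ribosomal proteins 0.204 with 3 above and 0 below. On the nuclear scale itself the medians were -0.09 and -0.31, so both lists fell less than the median gene.

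Core splicing and proteasome genes were called above as well, and subunits of RNA polymerase II in both directions. Of 19 core proteins of splicing particles, 10 were called above and none below (without Free-MK1775+NLG919 replicate 2, 15 above and 1 below), among them Snrpd2 at 182 and 172 in Lipo-MK1775 against 113 and 123 in control tumours (1.48 ± 0.204). Of 33 proteasome subunits, 6 were called above and none below (without Free-MK1775+NLG919 replicate 2, 15 above and 0 below), among them Psmb3 at 386 and 423 in Lipo-MK1775 against 281 and 305 in control tumours (1.37 ± 0.19). The 12 RNA polymerase II subunits gave 1 call each way (without Free-MK1775+NLG919 replicate 2, 7 above and 2 below). Polr2f, a small subunit, had 340.4 and 370.1 nuclear-scaled FPKM in Lipo-MK1775 tumours, against 103 and 144 in negative control tumours (2.44 ± 0.29, adjusted p = 0.00462). Polr2a, the largest and catalytic subunit, had 21.9 and 28.7 nuclear-scaled FPKM in Lipo-MK1775 tumours, against 143 and 114 in negative control tumours (-1.4 ± 0.33, adjusted p = 0.0326). Both libraries of each group were clear of the other for the 2 genes, in opposite directions. Against genes of like length the splicing list had 1 above and 0 below with a median of 0.21, the proteasome list 0 above and 0 below with 0.11, and the RNA polymerase II list 1 above and 0 below with 0.01, against 0.78 over all genes. The transcript of Polr2a is 6732 bases long and that of Polr2f 886 bases. Of 35 chromatin regulators, whose median transcript length was 8120 bases, Kmt2a, a histone H3 lysine 4 methyltransferase, was called below (4.46 and 3.85 nuclear-scaled FPKM in Lipo-MK1775 tumours, against 36.3 and 24.1 in negative control tumours; -1.67 ± 0.44, adjusted p = 0.0457) and none above. Without Free-MK1775+NLG919 replicate 2, the list had 0 above and 14 below. Its median of -0.55 became 0.02 against genes of like length.

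**Figure D2:**
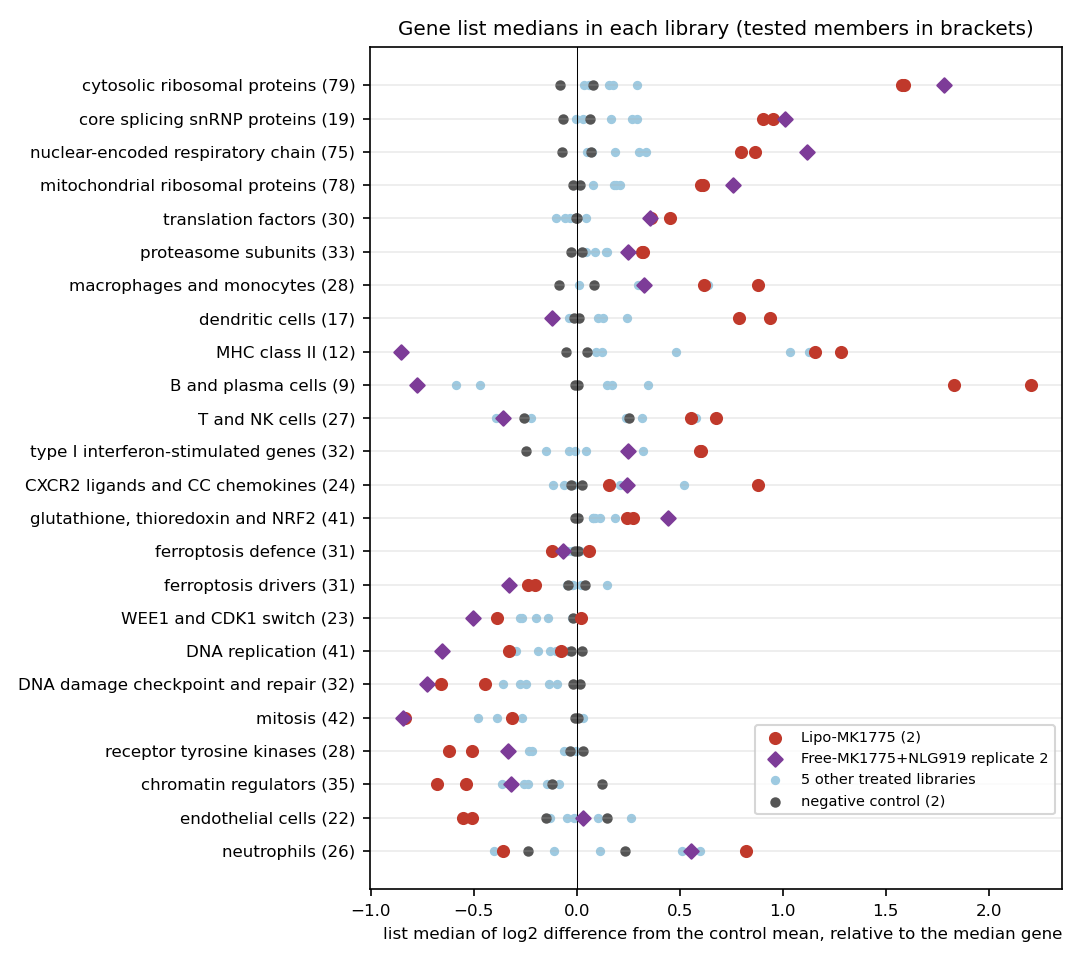
Median over the tested members of each gene list of the log2 difference from the control mean, relative to the library's median gene (horizontal axis), for each library; the number of tested members stands in brackets. Lipo-MK1775 and Free-MK1775+NLG919 replicate 2 lie together for ribosomal proteins (1.59 and 1.58, with 1.78) and apart for B and plasma cell genes (2.20 and 1.83, with -0.78).

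Retnla and Chil3, both known from alternatively activated macrophages, were among the 10 largest relative differences named. Retnla, which encodes the secreted resistin-like alpha, had 163 and 26.5 nuclear-scaled FPKM in Lipo-MK1775 tumours, against 0 and 8.66 in negative control tumours (5.34 ± 1.06, adjusted p = 0.0166). Chil3, a secreted chitinase-like protein, had 34.5 and 28.7 nuclear-scaled FPKM in Lipo-MK1775 tumours, against 2.36 and 6.61 in negative control tumours (3.59 ± 0.57, adjusted p = 0.00699). Rnase2a, of the eosinophil-associated ribonuclease family, whose near-identical copies can split reads, had 132 and 64.2 nuclear-scaled FPKM in Lipo-MK1775 tumours, against 0.947 and 10.5 in negative control tumours (5.21 ± 0.72, adjusted p = 0.00478). Both Lipo-MK1775 libraries lay above both controls for the 3 genes, which the rule for naming them required. That held for 7.12% of all genes tested. The Lipo-MK1775 libraries of Retnla differed several-fold from each other. Free-MK1775+NLG919 replicate 2, with its high mitochondrial share, had 1.56, 0.703 and 1.77, each under the higher of the 2 controls. Clec3b, the plasminogen-binding protein tetranectin, had 17.4 and 16.2 nuclear-scaled FPKM in Lipo-MK1775 tumours, against 1.68 and 0.717 in negative control tumours (3.96 ± 0.399, adjusted p = 0.00393), with 0.316 in Free-MK1775+NLG919 replicate 2.

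Of 28 macrophage and monocyte genes, 8 were called above and none below (without Free-MK1775+NLG919 replicate 2, 17 above and 0 below), with a median of 0.65. Apoe, a lipid carrier of lipid-loaded macrophages, had 1452 and 3242 nuclear-scaled FPKM in Lipo-MK1775 tumours, against 562 and 591 in negative control tumours (2.82 ± 0.36, adjusted p = 0.00462); its symbol shares a locus with another. Trem2, a lipid-sensing receptor, had 35.9 and 36.7 nuclear-scaled FPKM in Lipo-MK1775 tumours, against 14.3 and 23.5 in negative control tumours (1.85 ± 0.28, adjusted p = 0.00565), and Fcer1g, a signalling chain of Fc receptors, 256 and 316 nuclear-scaled FPKM in Lipo-MK1775 tumours, against 225 and 222 in negative control tumours (1.25 ± 0.22). Free-MK1775+NLG919 replicate 2 had 1266, 27.9 and 408 for these genes. The summed level of 6 defining macrophage markers did not separate the groups, at 2549 and 2711 nuclear-scaled FPKM in Lipo-MK1775 tumours against 2128 and 2940 in negative control tumours. The list median was -0.25 on the nuclear scale itself, below 0 although above the median gene, and 0.43 against genes of like length, with 4 above and 0 below. The other members called were Cd68, Mrc1, Cd163, Arg1 and Tyrobp.

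Lectins were the dendritic cell genes called. Of 17 tested dendritic cell genes, 3 were called above and none below (without Free-MK1775+NLG919 replicate 2, 7 above and 0 below; against genes of like length, 1 above and 0 below). Clec10a, a galactose-binding lectin of dendritic cells and macrophages, had 29.6 and 38.3 nuclear-scaled FPKM in Lipo-MK1775 tumours, against 7.12 and 9.66 in negative control tumours (2.803 ± 0.42, adjusted p = 0.00545). Cd209d had 6.08 and 33.2 nuclear-scaled FPKM in Lipo-MK1775 tumours, against 2.69 and 0 in negative control tumours (3.92 ± 0.82) and Cd209a 4.81 and 12.2 nuclear-scaled FPKM in Lipo-MK1775 tumours, against 2.09 and 2.06 in negative control tumours (2.41 ± 0.51); both belong to the DC-SIGN family of lectins, and the Lipo-MK1775 libraries differed more between themselves than for Clec10a. The summed level of 5 dendritic cell markers was 17.2 and 30.0 in Lipo-MK1775 tumours and 20.9 and 18.7 in negative control tumours, which overlap. Zbtb46, a transcription factor of conventional dendritic cells, had 2.31 and 1.03 in Lipo-MK1775 tumours against 3.76 and 3.92 in negative control tumours, and of the 5 markers Cd209a alone was higher in both Lipo-MK1775 libraries. No gene of MHC class II presentation was called among 12 in limma's test over all libraries; 4 had an unadjusted p under 0.05, and 11 were called above without Free-MK1775+NLG919 replicate 2. The list median was 1.28 and 1.16 in the Lipo-MK1775 libraries and 0.05 and -0.05 in the controls. It was -0.85 in Free-MK1775+NLG919 replicate 2, and 1.13 and 1.03 in Free-MK1775+NLG919 replicate 1 and Free-MK1775 replicate 1, so libraries of other groups reached a similar level. Cd74, the invariant chain, had 1609 and 1504 nuclear-scaled FPKM in Lipo-MK1775 tumours, against 1573 and 1393 in negative control tumours (0.98 ± 0.93, adjusted p = 0.561), groups that overlap on the nuclear scale. Ctss, the protease that trims the invariant chain, had 893 and 849.5 nuclear-scaled FPKM in Lipo-MK1775 tumours, against 631 and 784 in negative control tumours (1.21 ± 0.46, adjusted p = 0.149).

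Of 9 tested B and plasma cell genes, 5 were called above and none below (without Free-MK1775+NLG919 replicate 2, 7 above and 0 below), and the list median was 2.33. The list has 20 members, and those under the filter were not tested, so the count of 5 and the median are in part set by the filter. Iglc2, an immunoglobulin light chain constant gene, had 12.1 and 7.62 nuclear-scaled FPKM in Lipo-MK1775 tumours, against 0.328 and 0.697 in negative control tumours (3.73 ± 0.52, adjusted p = 0.00493). It thus reached the filter's 2 nuclear-scaled FPKM in neither control. Ighg2b, a heavy chain constant gene, had 6.502 and 9.19 nuclear-scaled FPKM in Lipo-MK1775 tumours, against 3.35 and 1.44 in negative control tumours (2.33 ± 0.57), and Cd22, a B cell inhibitory receptor, 6.01 and 4.48 nuclear-scaled FPKM in Lipo-MK1775 tumours, against 1.79 and 2.03 in negative control tumours (1.997 ± 0.47). Immunoglobulin genes share their loci with neighbouring symbols, so their split is uncertain. Ighm, the heavy chain constant gene of IgM, had 148 and 69.6 nuclear-scaled FPKM in Lipo-MK1775 tumours, against 16.6 and 15.8 in negative control tumours, while Ms4a1, a defining B cell surface marker, was listed at 0 in all 4 libraries. Free-MK1775+NLG919 replicate 2 had a list median of -0.78. On the nuclear scale itself the list median was 1.42, and against genes of like length it was 2.14, with 1 above and 0 below.

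Of 27 T and NK cell genes, 2 were called above (7.41%, close to the 6.95% of all genes) and none below (without Free-MK1775+NLG919 replicate 2, 7 above and 0 below). Ccl5, a chemokine of cytotoxic cells, had 98.97 and 58.5 nuclear-scaled FPKM in Lipo-MK1775 tumours, against 44.02 and 30.9 in negative control tumours (1.93 ± 0.403), and Cd2, a T cell adhesion molecule, 9.87 and 10.9 nuclear-scaled FPKM in Lipo-MK1775 tumours, against 7.25 and 4.199 in negative control tumours (1.701 ± 0.41). Against genes of like length the list had 0 above and 0 below in limma's test over all libraries, with a median of 0.381, against 0.573 over all genes. The summed level of 6 T and NK cell markers was 39.8 and 40.9 in Lipo-MK1775 tumours and 66.1 and 35.0 in negative control tumours, which overlap. Among 24 chemokine genes, 6 were called above and none below (without Free-MK1775+NLG919 replicate 2, 6 above and 2 below; against genes of like length, 3 above and 0 below with a median of 0.03). Ccl11, which draws eosinophils, had 32.6 and 14.5 nuclear-scaled FPKM in Lipo-MK1775 tumours, against 3.51 and 5.81 in negative control tumours (2.94 ± 0.47, adjusted p = 0.0071). Ccl6 had 758 and 529 nuclear-scaled FPKM in Lipo-MK1775 tumours, against 290.4 and 439 in negative control tumours (1.73 ± 0.28) and Ccl4 27.5 and 36.9 nuclear-scaled FPKM in Lipo-MK1775 tumours, against 19.2 and 21.6 in negative control tumours (1.52 ± 0.26). None of 26 neutrophil genes was called, either way, in limma's test over all libraries, and 2 had an unadjusted p under 0.05 (without Free-MK1775+NLG919 replicate 2, 1 above and 1 below). Their list median was -0.36 and 0.82 in the Lipo-MK1775 libraries and 0.23 and -0.23 in the controls, so the 2 treated libraries lay on either side of the controls.

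Part of the type I interferon response was called above. Of 32 genes tested, 7 were called above and none below (without Free-MK1775+NLG919 replicate 2, 14 above and 1 below), with a median of 0.62, which was -0.28 on the nuclear scale itself. Irf7, the transcription factor that amplifies the response, had 122 and 171 nuclear-scaled FPKM in Lipo-MK1775 tumours, against 98.03 and 63.6 in negative control tumours (1.77 ± 0.28, adjusted p = 0.00693). Isg15, a ubiquitin-like modifier, had 202 and 203 nuclear-scaled FPKM in Lipo-MK1775 tumours, against 122 and 112 in negative control tumours (1.69 ± 0.24, adjusted p = 0.00545), and Ifi27l2a 183 and 317 nuclear-scaled FPKM in Lipo-MK1775 tumours, against 95.6 and 73.5 in negative control tumours (2.41 ± 0.34, adjusted p = 0.005304). Free-MK1775+NLG919 replicate 2 had 105, 116 and 251. The list medians were 0.602 and 0.6 in Lipo-MK1775 and 0.24 and -0.24 in control libraries. Against genes of like length the list had 3 above and 0 below, Irf7 had 1.64 (adjusted p = 0.0335) and Isg15 0.79 (adjusted p = 0.143). Of 28 genes that interferon gamma induces, none was called in limma's test over all libraries and 0 had an unadjusted p under 0.05; without Free-MK1775+NLG919 replicate 2, the list had 3 above and 1 below. Psmb10, an immunoproteasome subunit, had 344 and 299 nuclear-scaled FPKM in Lipo-MK1775 tumours, against 211 and 199 in negative control tumours (1.55 ± 0.32, adjusted p = 0.0186).

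The promoter of Isg15 shows the element that interferon-activated factors are known to bind. The 150 bases before its start, chr4:156200819-156200968 on the minus strand of GRCm38.p6 in RefSeq, are printed in gene direction with matches to GAAA, any 2 bases and GAAA again, sought on both strands, in capitals; 3 matches overlap.
Isg15: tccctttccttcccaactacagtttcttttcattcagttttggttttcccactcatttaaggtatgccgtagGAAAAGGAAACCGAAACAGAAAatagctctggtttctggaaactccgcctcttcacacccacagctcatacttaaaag
In the 250 bases before the start, 10 of 22 list members with a RefSeq promoter hold such a match (45.5%), and so do 821 of all 27025 promoters (3.04%). The match describes the letters and not a bound site.

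**Figure D3:**
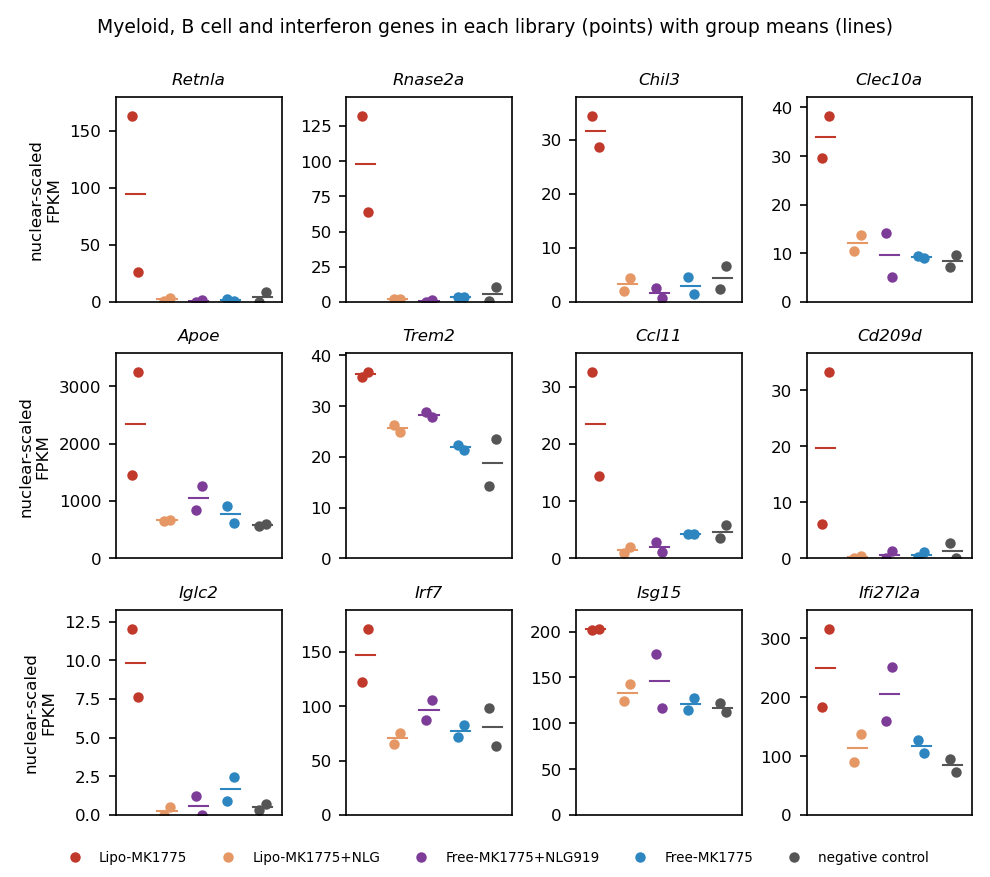
Nuclear-scaled FPKM (vertical axes, from 0) of 12 myeloid, B cell and interferon genes in each library, with replicate 1 left of replicate 2 and the group mean as a line. Retnla reaches 163 and 26.5 in Lipo-MK1775 tumours and stays at or under 8.66 in the other libraries, while Ifi27l2a is also high, at 251, in Free-MK1775+NLG919 replicate 2.

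Nuclear RNAs and a nuclear protein were among the genes below the median gene. Neat1, the RNA scaffold of paraspeckles, had 12.2 and 38.9 nuclear-scaled FPKM in Lipo-MK1775 tumours, against 334 and 258 in negative control tumours (-2.77 ± 0.72, adjusted p = 0.0456), and Free-MK1775+NLG919 replicate 2 had 18.7. Malat1, an abundant nuclear RNA of similar length, had 12.1 and 19.8 nuclear-scaled FPKM in Lipo-MK1775 tumours, against 68.8 and 48.1 in negative control tumours (-0.92 ± 0.51, adjusted p = 0.307) and was not called. Xist, the RNA of X inactivation, had 2.36 and 2.11 nuclear-scaled FPKM in Lipo-MK1775 tumours, against 19.7 and 16.1 in negative control tumours (-1.64 ± 0.44, adjusted p = 0.0491). Pnisr, a serine and arginine-rich nuclear protein, had 5.27 and 5.31 nuclear-scaled FPKM in Lipo-MK1775 tumours, against 52.7 and 56.6 in negative control tumours (-2.24 ± 0.43, adjusted p = 0.0148); its Lipo-MK1775 libraries were nearly equal and its controls likewise. Against genes of like length, Neat1 had -2.26 (adjusted p = 0.153), Xist -0.96 (adjusted p = 0.314) and Pnisr -2 (adjusted p = 0.0513), none of them called.

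Atp1b1, the beta subunit of the sodium pump, had 2.59 and 12.4 nuclear-scaled FPKM in Lipo-MK1775 tumours, against 88.1 and 86.7 in negative control tumours (-2.77 ± 0.57, adjusted p = 0.0193). Slc12a2, a sodium, potassium and chloride cotransporter, had 3.65 and 3.55 nuclear-scaled FPKM in Lipo-MK1775 tumours, against 36.1 and 35.3 in negative control tumours (-2.09 ± 0.54, adjusted p = 0.0419), and Ank3, the ankyrin that anchors such proteins to the cytoskeleton, 0.247 and 1.58 nuclear-scaled FPKM in Lipo-MK1775 tumours, against 17.6 and 11.5 in negative control tumours (-2.18 ± 0.52). Prss12, a secreted serine protease, had 0.175 and 1.51 nuclear-scaled FPKM in Lipo-MK1775 tumours, against 10.8 and 25.4 in negative control tumours (-2.46 ± 0.53), and Dhrs9, a retinol dehydrogenase, 1.93 and 4.02 nuclear-scaled FPKM in Lipo-MK1775 tumours, against 32.5 and 31.9 in negative control tumours (-2.21 ± 0.52). In all 5 genes both Lipo-MK1775 libraries lay under both controls, which the rule for naming them required. That held for 77.4% of all genes tested. Free-MK1775+NLG919 replicate 2 was low too in the 5 genes, between 1.09 and 15.7. Rgs11, a regulator of G protein signalling, differed: 0.729 and 3.803 nuclear-scaled FPKM in Lipo-MK1775 tumours, against 21.6 and 26.4 in negative control tumours (-2.21 ± 0.45, adjusted p = 0.0186), and 22.8 in Free-MK1775+NLG919 replicate 2, near the controls. Htr5b, a serotonin receptor gene, had 0 and 1.66 nuclear-scaled FPKM in Lipo-MK1775 tumours, against 14.6 and 11.5 in negative control tumours (-2.19 ± 0.47). Prl2c3, of the proliferin family with near-identical copies, had 10.6 and 16.5 nuclear-scaled FPKM in Lipo-MK1775 tumours, against 113 and 106 in negative control tumours (-2.05 ± 0.48), and its 6 other libraries lay between 0 and 43.8. Prkaa1, a catalytic subunit of AMPK, had 31.8 and 25.7 nuclear-scaled FPKM in Lipo-MK1775 tumours, against 1025 and 243 in negative control tumours (-3.18 ± 0.59, adjusted p = 0.0121), but its locus is shared with another symbol, the 2 controls lie far apart, and summing only transcripts that carry a symbol reversed the sign to 0.25.

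Of 22 endothelial genes, 1 was called each way. Cdh5, the vascular cadherin that defines the cell type, had 7.38 and 3.91 nuclear-scaled FPKM in Lipo-MK1775 tumours, against 46.4 and 27.9 in negative control tumours (-1.62 ± 0.39, adjusted p = 0.0328), and Rgcc, a cell cycle regulator, 31.1 and 27.5 nuclear-scaled FPKM in Lipo-MK1775 tumours, against 22.5 and 22.2 in negative control tumours (1.28 ± 0.29). Without Free-MK1775+NLG919 replicate 2 the list had 1 above and 6 below. Its median was -0.51 and -0.55 in Lipo-MK1775 libraries and 0.15 and -0.15 in controls, with 0.03 in Free-MK1775+NLG919 replicate 2. Against genes of like length the list had 0 above and 0 below in limma's test over all libraries, with a median of -0.305, against -0.507 over all genes. The summed level of endothelial markers was 36.5 and 21.5 nuclear-scaled FPKM in Lipo-MK1775 tumours against 122 and 90.7 in negative control tumours. Markers of keratinocytes summed to 1.76 and 3.28 in Lipo-MK1775 tumours and to 499 and 5.63 in negative control tumours, so the 2 controls differ for skin genes. Free-MK1775 replicate 2 and Lipo-MK1775+NLG replicate 2 were also high, at 195 and 364.5.

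**Figure D4:**
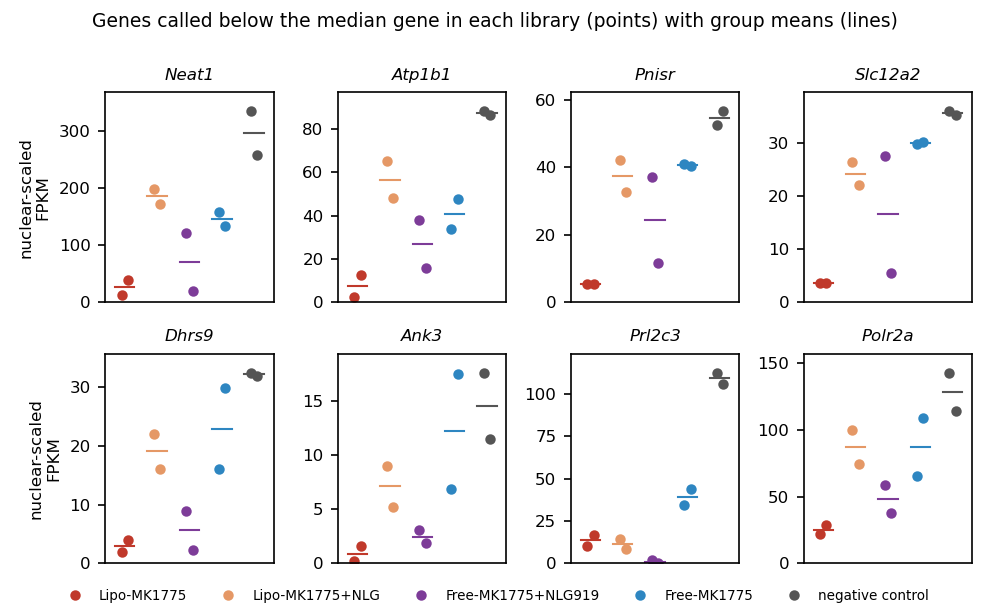
Nuclear-scaled FPKM (vertical axes, from 0) of 8 genes called below the median gene in each library, with replicate 1 left of replicate 2 and the group mean as a line. Pnisr lies at 5.27 and 5.31 in Lipo-MK1775 tumours against 52.7 and 56.6 in negative control tumours, with 11.6 in Free-MK1775+NLG919 replicate 2.

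The carcinoma label was checked against 8 markers. Keratins of simple epithelium were present in every library: Krt18 had 638 and 990 nuclear-scaled FPKM in Lipo-MK1775 tumours against 726 and 1093 in negative control tumours. Epcam, an epithelial adhesion molecule, had 0.3498 and 0 nuclear-scaled FPKM in Lipo-MK1775 tumours, against 12.2 and 1.32 in negative control tumours (-1.35 ± 0.99, adjusted p = 0.447). The 8 markers summed to 943 and 1475 in Lipo-MK1775 tumours and to 1755 and 1868 in negative control tumours. Krt14, a keratin that skin also expresses, held 449 of the sum in negative control replicate 1, and without it, an alternative chosen after the values were seen, the sums were 943 and 1474 in Lipo-MK1775 tumours and 1306 and 1868 in negative control tumours, which overlap. None of 27 genes of carcinoma epithelial identity was called in limma's test over all libraries, with 4 at an unadjusted p under 0.05; without Free-MK1775+NLG919 replicate 2, the list had 1 above and 3 below.

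Among genes of the WEE1 and CDK1 switch, 1 of 23 was called above (4.35%, against 6.95% of all genes) and none below (without Free-MK1775+NLG919 replicate 2, 3 above and 4 below). The median was -0.17. Wee1, the drug target, had 12.9 and 12.01 nuclear-scaled FPKM in Lipo-MK1775 tumours, against 34.4 and 35.9 in negative control tumours, a relative difference of -0.52 ± 0.34 (SE, adjusted p = 0.397); its locus is shared with another symbol. Both Lipo-MK1775 libraries lay under both controls, as for most genes, and the difference from the median gene did not pass the test. Pkmyt1, the related CDK1 kinase, had 8.94 and 6.87 nuclear-scaled FPKM in Lipo-MK1775 tumours, against 26.9 and 27.1 in negative control tumours (-0.76 ± 0.4, adjusted p = 0.289). Cdk1 had 31.3 and 27.1 nuclear-scaled FPKM in Lipo-MK1775 tumours, against 58.6 and 61.1 in negative control tumours (-0.11 ± 0.33), and Ccnb1, its cyclin, 36.2 and 19.3 nuclear-scaled FPKM in Lipo-MK1775 tumours, against 66.1 and 68.2 in negative control tumours (-0.41 ± 0.47), neither called. Arpp19, which inhibits the phosphatase that opposes CDK1, was the member called, at 51.9 and 63.5 in Lipo-MK1775 against 59.96 and 54.7 in control tumours (0.91 ± 0.24, adjusted p = 0.0446): it kept its level on the nuclear scale, and its groups overlap there.

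Of 42 mitosis genes, 2 were called above (4.76%) and none below (without Free-MK1775+NLG919 replicate 2, 4 above and 13 below), and the median was -0.54. Ube2c, the ubiquitin carrier of the anaphase-promoting complex, had 316 and 257 nuclear-scaled FPKM in Lipo-MK1775 tumours, against 243 and 256 in negative control tumours (1.097 ± 0.22, adjusted p = 0.0176), and Birc5, survivin, 143 and 118 nuclear-scaled FPKM in Lipo-MK1775 tumours, against 117 and 111 in negative control tumours (1.09 ± 0.25). Their transcripts are 978 and 1171 bases long. Mki67, a proliferation antigen with a transcript of 9845 bases, had 26.7 and 12.3 nuclear-scaled FPKM in Lipo-MK1775 tumours, against 90.2 and 79.96 in negative control tumours (-1.26 ± 0.42, adjusted p = 0.101), and Aspm, a spindle protein with one of 9626 bases, 2.36 and 1.89 nuclear-scaled FPKM in Lipo-MK1775 tumours, against 17.9 and 16.1 in negative control tumours (-1.62 ± 0.52, adjusted p = 0.09404). None of 41 DNA replication genes, of 32 DNA damage checkpoint and repair genes or of 28 receptor tyrosine kinases was called in limma's test over all libraries, with 4, 8 and 7 members at an unadjusted p under 0.05. Without Free-MK1775+NLG919 replicate 2, the 3 lists had 4 above and 11 below, 2 above and 10 below and 1 above and 12 below. Cdkn1a, the p53-induced inhibitor of cyclin-dependent kinases, had 52.04 and 65.4 nuclear-scaled FPKM in Lipo-MK1775 tumours, against 91.8 and 87.5 in negative control tumours (0.29 ± 0.28, adjusted p = 0.557).

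Of 31 ferroptosis defence genes, 1 was called above (3.23%, beside 6.95% of all genes), the ferritin light chain. Ftl1 had 6512 and 7869 nuclear-scaled FPKM in Lipo-MK1775 tumours, against 5493 and 5050 in negative control tumours (1.35 ± 0.18, adjusted p = 0.00462), and quantile scaling reversed its sign to -0.14. No defence gene was called below (without Free-MK1775+NLG919 replicate 2, 5 above and 4 below). Both Lipo-MK1775 libraries were higher than both controls for Ftl1. Against genes of like length, limma's test over all libraries called none of the 31, so the call of Ftl1 was lost there. Tested against 0, the list had 0 above and 16 below, beside 334 above and 6225 below of all genes tested. Fth1, the ferritin heavy chain, had 4240 and 5794 nuclear-scaled FPKM in Lipo-MK1775 tumours, against 6333 and 5378 in negative control tumours (0.67 ± 0.202, adjusted p = 0.0767), and its groups overlap. Gpx4 had 527 and 601 nuclear-scaled FPKM in Lipo-MK1775 tumours, against 703 and 799 in negative control tumours (0.49 ± 0.199, adjusted p = 0.171). It was lower in Lipo-MK1775 on the nuclear scale by less than the median gene, and against genes of like length it had -0.17 (adjusted p = 0.739). Slc7a11 had 1.62 and 3.52 nuclear-scaled FPKM in Lipo-MK1775 tumours, against 9.02 and 7.77 in negative control tumours (-0.54 ± 0.51), and Aifm2, an enzyme that reduces ubiquinone against lipid peroxidation, 18.7 and 24.7 nuclear-scaled FPKM in Lipo-MK1775 tumours, against 26.3 and 25.6 in negative control tumours (0.64 ± 0.34, adjusted p = 0.282).

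None of 31 ferroptosis driver genes was called in limma's test over all libraries, with 4 at an unadjusted p under 0.05; without Free-MK1775+NLG919 replicate 2, the list had 6 above and 5 below. Acsl4, which loads polyunsaturated fatty acids into membranes, had 28.3 and 20.6 nuclear-scaled FPKM in Lipo-MK1775 tumours, against 58.6 and 60.1 in negative control tumours (-0.36 ± 0.46, adjusted p = 0.675). Tfrc, the receptor for iron-bound transferrin, had 55.4 and 46.1 nuclear-scaled FPKM in Lipo-MK1775 tumours, against 128 and 166 in negative control tumours (-0.603 ± 0.39, adjusted p = 0.3797), and Slc25a37, which carries iron into mitochondria, was called below at 20.4 and 26.2 in Lipo-MK1775 against 129 and 124 in control tumours (-1.496 ± 0.4, adjusted p = 0.0493). Ptgs2 had 59.3 and 53.1 nuclear-scaled FPKM in Lipo-MK1775 tumours, against 92.2 and 128 in negative control tumours (-0.04 ± 0.37), and Chac1, a glutathione-degrading enzyme of the ATF4 response, 22.2 and 27.5 nuclear-scaled FPKM in Lipo-MK1775 tumours, against 54.9 and 66.7 in negative control tumours (-0.35 ± 0.29, adjusted p = 0.491). Nfe2l2, the transcription factor NRF2, had 73.1 and 59.5 nuclear-scaled FPKM in Lipo-MK1775 tumours, against 165 and 155 in negative control tumours (-0.36 ± 0.26) and its target Hmox1 183 and 265 nuclear-scaled FPKM in Lipo-MK1775 tumours, against 487 and 413 in negative control tumours (-0.12 ± 0.28), neither called.

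Of the antioxidant genes some were called: 6 of 41 glutathione, thioredoxin and NRF2 genes were called above and none below (without Free-MK1775+NLG919 replicate 2, 16 above and 3 below). The list median of 0.27 was -0.02 against genes of like length, with 1 above and 0 below, and quantile scaling called 3 above and 3 below. Gpx3, the secreted glutathione peroxidase, had 74.8 and 132 nuclear-scaled FPKM in Lipo-MK1775 tumours, against 39.1 and 23.8 in negative control tumours (2.58 ± 0.35, adjusted p = 0.00462), with 43.2 in Free-MK1775+NLG919 replicate 2. Prdx2, a peroxiredoxin, had 335 and 269 nuclear-scaled FPKM in Lipo-MK1775 tumours, against 205 and 234 in negative control tumours (1.36 ± 0.23), and Txn1, thioredoxin, 681 and 721 nuclear-scaled FPKM in Lipo-MK1775 tumours, against 631 and 688 in negative control tumours (0.99 ± 0.19), whose groups overlap on the nuclear scale. Of 32 genes of the ATF4 and unfolded protein response, Nupr1, a stress-induced chromatin protein, was called above at 265 and 311 in Lipo-MK1775 against 153 and 181 in control tumours (1.69 ± 0.402), while Free-MK1775+NLG919 replicate 2 had 674; none was called below (without Free-MK1775+NLG919 replicate 2, 1 above and 9 below). S100a6, a calcium-binding protein, had 5262 and 4602 nuclear-scaled FPKM in Lipo-MK1775 tumours, against 3201 and 3593 in negative control tumours (1.44 ± 0.197), with -0.0064 under quantile scaling. Nr4a2, an immediate early nuclear receptor, had 18.3 and 8.03 nuclear-scaled FPKM in Lipo-MK1775 tumours, against 5.79 and 5.85 in negative control tumours (1.86 ± 0.405, adjusted p = 0.0232; -0.18 when only transcripts that carry a symbol were summed), and Kdm3a, a hypoxia-induced histone demethylase, 10.6 and 9.61 nuclear-scaled FPKM in Lipo-MK1775 tumours, against 50.2 and 51.8 in negative control tumours (-1.33 ± 0.29, adjusted p = 0.0236).

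None of 12 tested genes of the IDO1, kynurenine and AhR pathway was called in limma's test over all libraries, and 1 had an unadjusted p under 0.05 (without Free-MK1775+NLG919 replicate 2, 0 above and 3 below). Ido1 had 5.31 and 2.72 nuclear-scaled FPKM in Lipo-MK1775 tumours, against 9.13 and 8.04 in negative control tumours (-0.08 ± 0.61, adjusted p = 0.956), and Cd274, the checkpoint ligand PD-L1, 18.6 and 23.99 nuclear-scaled FPKM in Lipo-MK1775 tumours, against 54.7 and 33.4 in negative control tumours (-0.08 ± 0.57, adjusted p = 0.952). Both lay under the controls on the nuclear scale by about as much as the median gene, and their SE of 0.61 and 0.57 leaves room for differences in either direction.

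**Figure D5:**
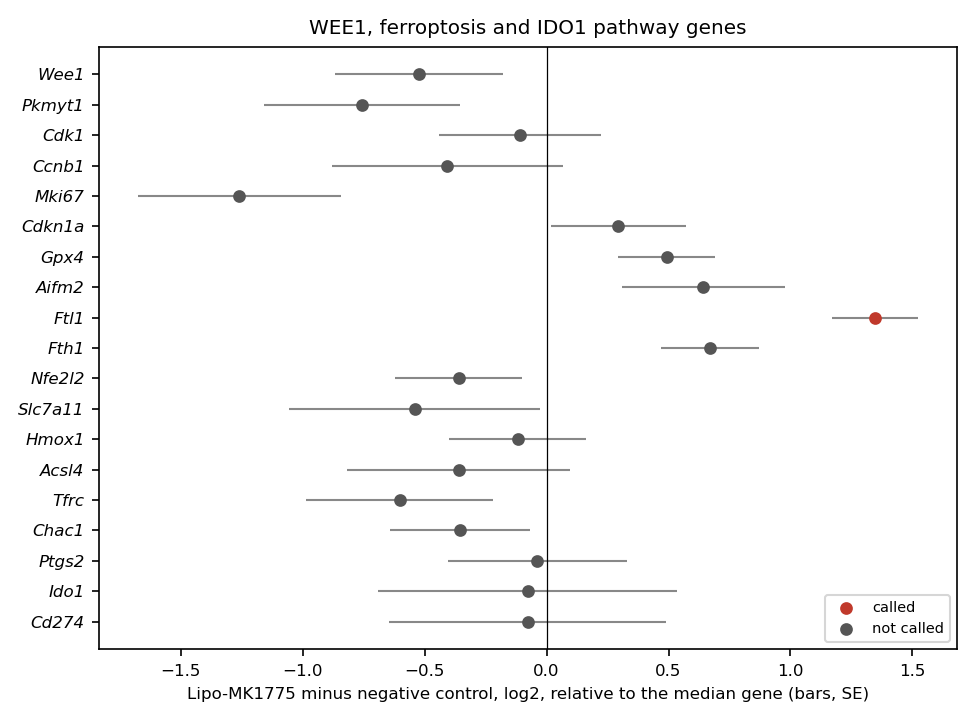
Relative difference of Lipo-MK1775 from negative control (log2, horizontal axis) of 19 genes of the WEE1, ferroptosis and IDO1 pathways, with bars of 1 SE from limma. Ftl1, at 1.35, is the gene called, and Mki67, at -1.26, lies farthest below 0 without a call.

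The same genes were set against the other treatments, which share the Lipo-MK1775 libraries with the comparison above. Against Free-MK1775, 551 genes (4.01%) were called, 525 above (3.82%) and 26 below a median gene that itself differed by -0.83. Against Lipo-MK1775+NLG, 618 genes (4.5%) were called, 594 above (4.32%) and 24 below a median gene at -0.87. Leaving out a library moved the first count to 2 and 1 (Lipo-MK1775 replicates 1 and 2), 7 and 4 (Free-MK1775), 318 (either negative control), 269 and 272 (Lipo-MK1775+NLG), and 2960 and 2969 (Free-MK1775+NLG919). It moved the second to 11 and 4 (Lipo-MK1775), 0 and 14 (Lipo-MK1775+NLG; at the count of 0 in limma's test, 1286 genes had an unadjusted p under 0.05), 397 and 400 (negative control), 406 and 410 (Free-MK1775), and 3013 and 3018 (Free-MK1775+NLG919). Retnla had 5.47 (adjusted p = 0.022) against Free-MK1775 and 5.3 (adjusted p = 0.023) against Lipo-MK1775+NLG. Chil3 had 3.96 (adjusted p = 0.0105) and 3.84 (adjusted p = 0.0107) in that order, Clec10a 2.59 (adjusted p = 0.0127) and 2.28 (adjusted p = 0.0168), and Apoe 2.36 (adjusted p = 0.0113) and 2.59 (adjusted p = 0.00951). Irf7 had 1.73 (adjusted p = 0.0128) and 1.9 (adjusted p = 0.01). These genes were named for their values in Lipo-MK1775 against negative control, and the same 2 Lipo-MK1775 libraries enter all 3 comparisons. Their place above the median gene in the other 2 comparisons is therefore no independent support.

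Ribosomal proteins were called above in 61 of 79 genes against Free-MK1775 and in 71 of 79 against Lipo-MK1775+NLG. Ftl1 had 1.21 (adjusted p = 0.0105) against Free-MK1775 and 1.11 (adjusted p = 0.0116) against Lipo-MK1775+NLG. Among genes below, Pnisr had -1.9 (adjusted p = 0.0403) and -1.73 (adjusted p = 0.0532), and Rgs11 -1.94 (adjusted p = 0.0426) and -1.89 (adjusted p = 0.0439). Neat1 had -1.83 (adjusted p = 0.218) and -2.14 (adjusted p = 0.143), and Prl2c3 -0.66 (adjusted p = 0.545) and 1.12 (adjusted p = 0.263), and neither gene was called in these 2 comparisons. Lipo-MK1775 was not tested against Free-MK1775+NLG919. Wee1 had -0.34 (adjusted p = 0.669) and -0.04 (adjusted p = 0.967).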

How the data were processed

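RNA of 10 libraries of 4T1 tumours, 5 groups of 2, was sequenced; per the submitters' processing notes FastQC, Trim Galore, HISAT2 and StringTie were used with the GRCm39 build, and no version or strand setting is stated. The authors deposited FPKM per transcript, so depth in reads is unknown and no counting interval is given. FPKM were summed per gene symbol. Of 21042 nuclear transcripts without a symbol, 14859 took the symbol of the gene they overlapped most in the same assembled locus and 6183 were left out. Genes of chromosome MT were removed and each library was rescaled to 1000000. Genes with at least 2 nuclear-scaled FPKM in at least 2 libraries were tested (13746 of 52287, with 38541 set aside), after adding a pseudocount of 1 and taking log2. A gene can pass through the 2 Lipo-MK1775 libraries alone. List members under the filter were not tested, so list counts and medians are in part set by it. limma 3.58.1 (R 4.3.3) fitted 5 group means over all 10 libraries with a variance trend. Each contrast was tested two-sided against the median log2 difference of all genes tested, with Benjamini-Hochberg adjustment and calls at 0.05. The code was tested on simulated data. Replicates have a number, which the main fit did not use to pair the samples.

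Named genes were first the 10 largest differences each way among called genes whose groups do not overlap. These needed at least 10 nuclear-scaled FPKM in both libraries of the higher group, and predicted genes, pseudogenes and shared loci were left out. Each of 49 lists gave the 3 members with the smallest p, of which some are printed. A list with no call gave instead the 2 members with the highest mean level, whatever their p. The 22 fixed genes were named as well. Members, lists and tests were chosen with earlier results of these data known, so lists are described and not tested. Alternatives covered scaling, centring, pseudocount, filter, symbols, variance trend, the groups fitted, the replicate block and each library left out; 2 were added after seeing the data, namely leaving out genes of mitochondrial-like sequence, and centring by length without Free-MK1775+NLG919 replicate 2. Promoter and microRNA sequences came from RefSeq (GRCm38.p6) and transcripts from GENCODE vM21.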

Additional observations from a re-analysis of the deposited data

Results flagged for a closer look

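Mitochondrial transcripts, which the comparisons leave out, held 64.1% and 56% of the summed FPKM in Lipo-MK1775 replicates 1 and 2, above the 4.79% and 3.70% of the negative controls. The share also differed within Free-MK1775+NLG919, at 2.88% and 47.3% in its 2 libraries. Nuclear transcripts with no symbol, also left out of the tests, held 13.8% and 12.2% of nuclear FPKM in the Lipo-MK1775 libraries, against 3.53% and 2.98% in the negative controls, with 10.8% in Free-MK1775+NLG919 replicate 2. What lies behind either share was not tested.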

How the results depend on the processing

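The count of 1072 genes called in Lipo-MK1775 against negative control was 2496 with median-of-ratios scaling, 2125 with quantile scaling, 6559 when tested against 0, 218 against genes of like length, 7725 without a filter on low values, 638 with symbol-bearing transcripts alone, 3393 in a fit of the groups compared and 2519 against genes of like length without Free-MK1775+NLG919 replicate 2. Against Free-MK1775 the count of 551 was 891 with median-of-ratios scaling, 5034 against 0, 108 at like length, 5668 without the filter, 318 with symbols alone, 1284 with the groups compared and 1667 at like length without that library. Against Lipo-MK1775+NLG the count of 618 was 5905 against 0, 114 at like length, 396 against genes of like level, 6308 without the filter, 387 with symbols alone, 2233 with the groups compared and 1674 at like length without that library. Leaving out 1 library gave 2 to 4300, 1 to 2969 and 0 to 3018 genes for the 3 comparisons; at the 0, limma gave 1286 genes at an unadjusted p under 0.05. The fit with the replicate number as a block called 795, 399 and 469. Between groups, the difference of replicate 1 from replicate 2 correlated across genes at -0.36 to 0.10. The lowest values were -0.358 (negative control with Free-MK1775) and -0.343 (negative control with Lipo-MK1775+NLG). These correlations cannot show whether same-numbered libraries share a batch, which the labels do not state.

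Of the 67 named genes called, 4 changed sign in 1 setting each. These were Ftl1 (-0.14) and S100a6 (-0.0064) under quantile scaling, and Nr4a2 (-0.18) and Prkaa1 (0.25) with symbols alone. Of those not called, quantile scaling turned Cd74 to -0.18, Fth1 to -0.75 and Gpx4 to -0.17. The test against 0 turned Aifm2 to -0.26, Cdkn1a to -0.61, Fth1 to -0.24 and Gpx4 to -0.41, and no filter turned Cdkn1a to -0.31 and Gpx4 to -0.11. Like length, with or without that library, turned Cd274 to 0.0702, Cdk1 to 0.13, Gpx4 to -0.17, Ptgs2 to 0.24 and Slc7a11 to 0.13; like level turned Cd274 to 0.0226, Gpx4 to -0.0752 and Ido1 to 0.0218. Cd274 was 0.0039 and Ptgs2 0.0638 with median-of-ratios scaling, and 0.0035 and 0.062 with a pseudocount of 0.1; Ido1 was 0.0347 with a pseudocount of 5 and 0.05 on deposited FPKM, and Cd274 0.0199 with symbols alone. With 1 library left out, the range was -0.395 to 0.234 for Cd274, -0.311 to 0.23 for Ptgs2, -0.356 to 0.115 for Hmox1, -0.241 to 0.0204 for Cdk1, -0.876 to 0.0585 for Ccnb1 and -0.49 to 0.331 for Ido1. Of the 67, 1 kept its call without Lipo-MK1775 replicate 1, 24 without Lipo-MK1775 replicate 2, 2 without negative control replicate 1 and 32 without negative control replicate 2; at like length 26 did. The cause was not tested.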

Other observations

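Other gene groups in Lipo-MK1775 against negative control are given as counts, to be read against 6.95% of all genes called above and 0.844% below, and, in the fit without Free-MK1775+NLG919 replicate 2, against 18.1% and 13.2%. Of 20 S100 and annexin genes, 6 were called above and none below, and 8 above without that library. None was called against genes of like length in limma's test over all libraries (median 0.0022, against 0.59 over all genes), and 2 were called above under quantile scaling. Of 28 cathepsin and lysosome genes, 2 were called above and none below, and 10 above without that library. Of 10 replication-dependent histone genes, 2 were called above and none below, and 6 above without it. Iron genes gave 1 call each way among 27, and 8 above and 5 below without it. Nuclear long noncoding RNAs gave 2 below among 16, and 3 above and 4 below without it. Hypoxia and glycolysis genes gave 1 below among 31, and 3 above and 5 below without it.

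A single member was called above, and none below, in 5 further groups. Without that library, the 34 genes of fibroblasts and matrix had 7 above and 8 below, the 27 immediate early genes 2 and 8, the 23 p53 targets 2 and 2, the 21 genes of MHC class I presentation 5 and 2, and the 12 adipocyte genes 2 and 0.

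No member was called in limma's test over all libraries in 7 further groups. Of 29 heat shock and chaperone genes 8 had an unadjusted p under 0.05, and without Free-MK1775+NLG919 replicate 2 the calls were 5 above and 3 below. Of 29 genes of cholesterol and fatty acid synthesis 5 had such a p, with 2 above and 11 below without that library, and of 13 lipoprotein and lipid receptors 3, with 0 above and 5 below. Of 11 genes of mast cells, basophils and eosinophils 1 had such a p, with 0 above and 1 below, of 7 erythroid genes 2, with 2 above and 0 below, of 20 skeletal muscle genes 0, with 1 above and 0 below, and of 20 epidermal genes 0, with 0 either way. Epidermal genes had a median of -1.78 and -1.84 in the Lipo-MK1775 libraries and 2.52 and -2.52 in the negative controls, so the 2 controls differed more from each other than from the treated tumours. Mast cell markers summed to 8.70 and 70.9 nuclear-scaled FPKM in Lipo-MK1775 tumours, against 148 and 119 in negative control tumours.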
